A study of Mus musculus with 27 samples.

Results

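The step from 0.3 to 1 μg/kg was examined in the colonic epithelium of male mice gavaged with the dioxin TCDD, a chlorinated and persistent ligand of the aryl hydrocarbon receptor (AhR). The comparison holds 6 of the 27 mice in the series, 3 at 1 μg/kg (mice 41, 43 and 44) and 3 at 0.3 μg/kg (mice 33, 34 and 35), and each group was taken whole from its labelled dose. All mice were C57BL/6 males, given 7 gavages in sesame oil at 4-day intervals from 28 days of age and examined at 56 days of age, and the other 21 mice received sesame oil alone or 0.01, 0.03, 0.1, 3, 10 or 30 μg/kg. The study's methods place tissue collection in the first hours of the light phase, so each mouse gives a single time of day. The tissue is a scraping of the epithelium, and its RNA was counted per gene.

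The circadian clock of a cell is a feedback loop of transcription factors. ARNTL pairs with CLOCK or NPAS2 and activates genes through E-box sequences, among them the PER and CRY repressors, the REV-ERB receptors (Nr1d1, Nr1d2) that repress Arntl, and the PAR bZIP factors (Dbp, Tef, Hlf) that act through D-box sequences opposed by NFIL3. In the colon this loop runs in the epithelium itself and times absorption, secretion and lipid handling, and AhR and ARNT belong to the same bHLH-PAS family as CLOCK and ARNTL. The step was singled out because clock gene levels moved most there, so clock values between these doses are given as a description, without a test.

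The bases before the RefSeq start of 6 genes that the results turn on are shown, chosen among those that hold a sequence read by the AhR, by the clock or by sterol-regulated factors (build GRCm38.p6, 250 bases each, 5′ to 3′ along the gene). Capitals mark GCGTG, the core of the element bound by AhR with ARNT, in Cyp1a1, the E-box CACGTG in Ciart and Tef, the D-box TTATGTAA in Per3, the RORE core TAGGTCA in Nfil3, which stands on the opposite strand, and the sterol response element TCACNCCAC in Hmgcs1.
Cyp1a1, chr9:57697363-57697612, plus strand: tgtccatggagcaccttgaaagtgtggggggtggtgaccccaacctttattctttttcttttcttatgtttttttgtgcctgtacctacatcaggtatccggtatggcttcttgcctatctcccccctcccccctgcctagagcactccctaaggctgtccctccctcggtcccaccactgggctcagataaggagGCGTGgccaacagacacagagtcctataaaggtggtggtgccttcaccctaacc
Ciart, chr3:95882229-95882478, minus strand: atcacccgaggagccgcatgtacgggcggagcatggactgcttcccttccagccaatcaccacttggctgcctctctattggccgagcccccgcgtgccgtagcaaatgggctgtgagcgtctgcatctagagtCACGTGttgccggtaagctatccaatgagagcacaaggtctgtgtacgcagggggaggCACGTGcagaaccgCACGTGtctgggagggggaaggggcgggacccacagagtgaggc
Per3, chr4:151044666-151044915, minus strand: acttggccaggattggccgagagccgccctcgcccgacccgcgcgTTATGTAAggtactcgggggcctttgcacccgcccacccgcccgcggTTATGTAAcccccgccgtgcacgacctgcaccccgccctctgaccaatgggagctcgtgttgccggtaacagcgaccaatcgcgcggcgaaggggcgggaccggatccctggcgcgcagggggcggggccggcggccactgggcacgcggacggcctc
Tef, chr15:81802423-81802672, plus strand: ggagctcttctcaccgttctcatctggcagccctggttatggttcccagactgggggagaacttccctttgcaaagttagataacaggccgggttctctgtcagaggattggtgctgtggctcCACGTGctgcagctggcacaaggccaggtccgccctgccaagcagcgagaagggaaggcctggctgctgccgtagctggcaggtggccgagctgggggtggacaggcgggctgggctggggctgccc
Nfil3, chr13:52981040-52981289, minus strand: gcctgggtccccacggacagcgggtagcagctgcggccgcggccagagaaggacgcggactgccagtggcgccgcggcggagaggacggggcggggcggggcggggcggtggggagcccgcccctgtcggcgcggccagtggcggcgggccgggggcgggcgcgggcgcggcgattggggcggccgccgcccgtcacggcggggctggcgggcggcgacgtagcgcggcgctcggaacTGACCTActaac
Hmgcs1, chr13:119690101-119690350, plus strand: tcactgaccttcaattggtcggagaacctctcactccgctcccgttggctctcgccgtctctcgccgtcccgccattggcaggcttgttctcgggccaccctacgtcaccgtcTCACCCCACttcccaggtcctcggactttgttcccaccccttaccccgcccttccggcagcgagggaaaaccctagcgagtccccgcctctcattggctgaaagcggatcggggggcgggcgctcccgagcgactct
Both strands were searched, and bases may belong to more than 1 motif. Among the 32851 listed promoters, 28.2% held GCGTG in these 250 bases, 6.02% held CACGTG, 0.819% held TTATGTAA, 2.23% held TAGGTCA and 1.05% held TCACNCCAC. Of the 20 core clock genes 17 had a listed promoter, and CACGTG stood in 5 of them, with 3 copies in Ciart. TTATGTAA stood in 1, Per3, which held 2 copies. TAGGTCA stood in 1, Nfil3, and neither Arntl, Npas2 nor Dbp held any of the clock motifs in these bases. Of 10 sterol genes with a listed promoter, 1, Hmgcs1, held TCACNCCAC. GCGTG stood in 15 of the 17 in at least 1 listed promoter, although clock genes with several listed starts had more bases searched.

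Gene counts ran from 11888112 to 13641950 per mouse at 0.3 μg/kg and from 9305441 to 12566466 at 1 μg/kg, within the range of 9305441 to 14371035 over the series. The index barcodes named with the count files were used once in mice 2 to 41 and again in the remaining mice. All 3 mice at 0.3 μg/kg and mouse 41 therefore belong to the first index set and mice 43 and 44 to the second, and what the sets stand for is not given in the sources used here. Values are given in CPM, the count of a gene relative to the library size scaled by TMM factors, and changes are log2 fold changes ± SE from edgeR with n = 3 mice per group.

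A single gene, Cyp1a1, passed the test between 1 and 0.3 μg/kg among 16496 genes tested (0.00606%). Cyp1a1 (ENSMUSG00000032315, GRCm38 chromosome 9, 57687928 to 57703824, plus strand) encodes the cytochrome P450 that is the classical readout of AhR activation. Its levels were 0.419, 0.484 and 0.518 CPM in mice 33, 34 and 35, and 5.86, 7.33 and 3.87 CPM in mice 41, 43 and 44. The groups did not overlap, and the values rest on 5, 6 and 7 counts at the lower dose and 74, 66 and 39 counts at the higher. Cyp1a1 rose 11.7-fold (log2 fold change 3.54 ± 0.53, edgeR adjusted p = 0.0117). The call was lost when mouse 33, 34, 35, 41 or 43 was left out, with adjusted p between 0.0683 and 0.185 and a log2 fold change that stayed between 3.34 and 3.61. With a term for index set, which in effect compares mouse 41 with mice 33, 34 and 35, the change was 3.59 ± 0.66 on the log2 scale (edgeR adjusted p = 0.265). In a tissue sample, more cells expressing a gene and more RNA per cell cannot be told apart.

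No other gene of the AhR list passed the test. Ahr alone among these others separated the doses, beside 5.87% of all genes that lay wholly higher. Cyp1b1, a related P450, was at 0.168, 0.888 and 0.074 CPM at 0.3 μg/kg and at 0.634, 0.444 and 0.794 CPM at 1 μg/kg, and the groups overlapped. Ahrr, the repressor of AhR, was at 1.42, 2.34 and 1.41 CPM and then at 2.85, 1.67 and 1.89 CPM, again with overlap. The log2 fold change was 0.16 ± 0.16 for Tiparp, an ADP-ribosyltransferase that dampens AhR signalling, and 0.13 ± 0.23 for Nqo1, a quinone reductase. The receptor itself, Ahr, had a log2 fold change of 0.12 ± 0.13 and its partner Arnt 0.05 ± 0.07. Cyp1a2 was listed at 0 in all 6 mice. All 7 tested members of the AhR list had a log2 fold change above 0, with a median of 0.16 against 0 over all genes. Of the 7, 1 was called, beside 0.00606% of all genes.

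**Figure D1:**
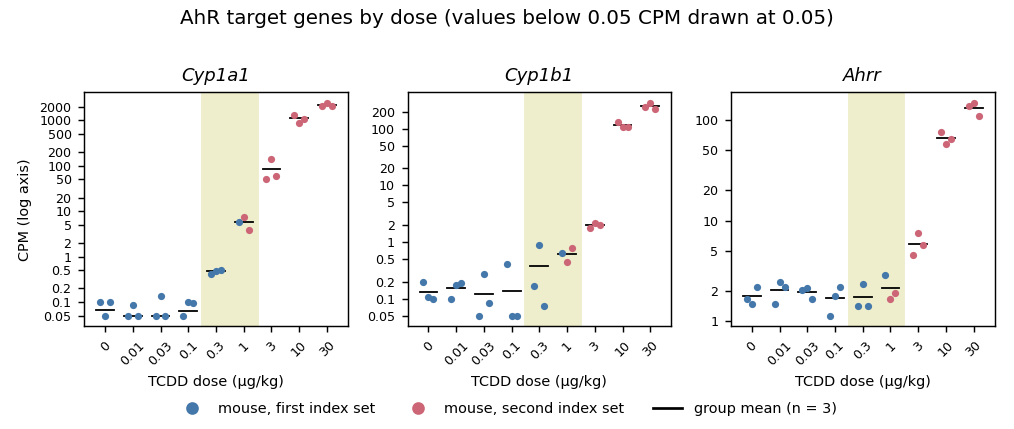
Levels of 3 AhR target genes in each mouse by TCDD dose (0 is sesame oil), in CPM on a log axis, with points for mice coloured by index set, lines for group means and the 0.3 and 1 μg/kg groups shaded. Cyp1a1 at 1 μg/kg lay between 3.87 and 7.33 CPM, above all 3 mice at 0.3 μg/kg, whereas Cyp1b1 and Ahrr overlapped between these doses.

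Cyp1b1 and Ahrr had their larger change at higher doses. Cyp1b1 was at 1.75, 2.14 and 2.02 CPM at 3 μg/kg and between 106 and 130 CPM at 10 μg/kg, and Ahrr was between 4.5 and 7.46 CPM and then between 58 and 75.2 CPM. The difference between the step from 0.3 to 1 and the step from 3 to 10 μg/kg, which share no mouse, was tested for every gene, and 3 of 16496 passed (0.0182%). For Cyp1b1 the log2 step was 0.75 here and 5.86 there, a difference of -5.11 ± 0.81 (edgeR adjusted p = 0.00998). The call for Cyp1b1 was lost with the index term and when mouse 34 was left out. For Ahrr it was 0.34 here and 3.48 there, a difference of -3.14 ± 0.35 (edgeR adjusted p = 4.46e-05). Pcdh17, a protocadherin of cell adhesion, was the third, with 25.9, 29.9 and 26.7 CPM at 0.3 μg/kg and 30.9, 27 and 25 CPM at 1 μg/kg, before levels of 1.19 to 1.54 CPM at 10 μg/kg. Its difference between the steps was 2.87 ± 0.29 (edgeR adjusted p = 1.41e-05). The whole fall of Pcdh17 from 1 to 10 μg/kg was larger than this on the log2 scale, so part of it lay between 1 and 3 μg/kg. Cyp1a1 did not share this pattern, as its log2 step was 3.54 here and 3.73 there, and the difference of -0.19 ± 0.83 did not pass (edgeR adjusted p = 1).

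Across the core clock, 13 of the 20 listed genes were higher at 1 than at 0.3 μg/kg and 7 were lower. In 9 genes all 3 mice at 1 μg/kg lay above all 3 at 0.3 μg/kg, and in 4 they all lay below. Over all genes tested, 5.87% lay wholly above and 4.66% wholly below. The activators were lower and most repressors and PAR bZIP factors higher.

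Among the activators, Arntl and Npas2 separated the doses and Clock did not. Arntl, the obligate partner in the activating dimer, was at 42.7, 37 and 39.3 CPM at 0.3 μg/kg and at 18.1, 23.8 and 10.1 CPM at 1 μg/kg, 2.3-fold lower. Npas2, which can take the place of CLOCK, was at 61.9, 53.7 and 57.4 CPM and then at 30.5, 42 and 21.7 CPM, 1.84-fold lower. Both groups were separate for these genes, and in each of them mouse 43 was the highest and mouse 44 the lowest of the mice at 1 μg/kg. Clock was at 120, 147 and 159 CPM and then at 99.9, 121 and 138 CPM, with overlap and a log2 fold change of -0.24 ± 0.16.

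The repressors were led by Ciart, which binds ARNTL and blocks its activity. Ciart was at 0.671, 2.26 and 1.63 CPM at 0.3 μg/kg and at 12, 6.11 and 10.2 CPM at 1 μg/kg, 6.2-fold higher. Per3 was at 32.3, 39.5 and 41.9 CPM and then at 131, 96.9 and 113 CPM, 3-fold higher, and Per2 was at 14.2, 26.6 and 39.5 CPM and then at 56, 55.1 and 60.8 CPM, 2.13-fold higher. In these 3 genes no mouse of one dose reached the range of the other, while the 3 mice at 0.3 μg/kg differed among themselves most in Ciart and Per2. Bhlhe40, a repressor that competes for E-boxes, was at 131 to 149 CPM and then at 186 to 193 CPM, without overlap.

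Other repressors moved less or in the opposite direction. Cry1, the strongest repressor of the loop, was the only listed repressor that was lower, at 28.5, 21.3 and 25.1 CPM at 0.3 μg/kg and 12, 14.4 and 15.3 CPM at 1 μg/kg, and the groups were separate. Its paralogue Cry2 was at 42.2, 44.4 and 46 CPM and then at 66.1, 44.9 and 62.5 CPM, and Per1 was at 47.4 to 58.9 CPM and then at 57.3 to 105 CPM. In both of these mouse 43 stayed within the range of the lower dose. Bhlhe41 was at 0.74 to 1.05 CPM and then at 4.2, 0.777 and 1.39 CPM, so its log2 fold change of 1.23 ± 0.53 rested mainly on mouse 41.

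In the nuclear receptor loop, the REV-ERB receptors were higher and Nfil3 was lower. Nfil3, the D-box repressor whose gene is itself repressed by REV-ERB, was at 6.96, 4.04 and 5.33 CPM at 0.3 μg/kg and at 0.95, 1.78 and 1.49 CPM at 1 μg/kg, 3.93-fold lower and without overlap. Nr1d1 was at 94, 107 and 101 CPM and then at 214, 130 and 159 CPM, and Nr1d2 was at 76.1, 89.1 and 69.6 CPM and then at 142, 120 and 145 CPM. Both were wholly higher at 1 μg/kg, by 1.67-fold and 1.74-fold. Nr1d1 overlaps Thra on the opposite strand, and whether strand was used in counting is not given in the sources used here. Rora and Rorb, receptors that activate where REV-ERB represses, overlapped between the doses, with log2 fold changes of -0.32 ± 0.27 and -0.01 ± 0.22.

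All 3 PAR bZIP factors, the output arm of the loop, were higher. Dbp was at 12.2, 16.7 and 14.7 CPM at 0.3 μg/kg and at 88, 43.9 and 55.3 CPM at 1 μg/kg, 4.3-fold higher. Tef was at 40.1, 51.9 and 49.6 CPM and then at 161, 117 and 139 CPM, 2.94-fold higher. Neither overlapped between the doses, and mouse 41 was highest and mouse 43 lowest at 1 μg/kg in both. Hlf, close to the limit of detection, was at 0.518 to 1.13 CPM and then at 3.48, 0.888 and 1.19 CPM, with overlap.

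**Figure D2:**
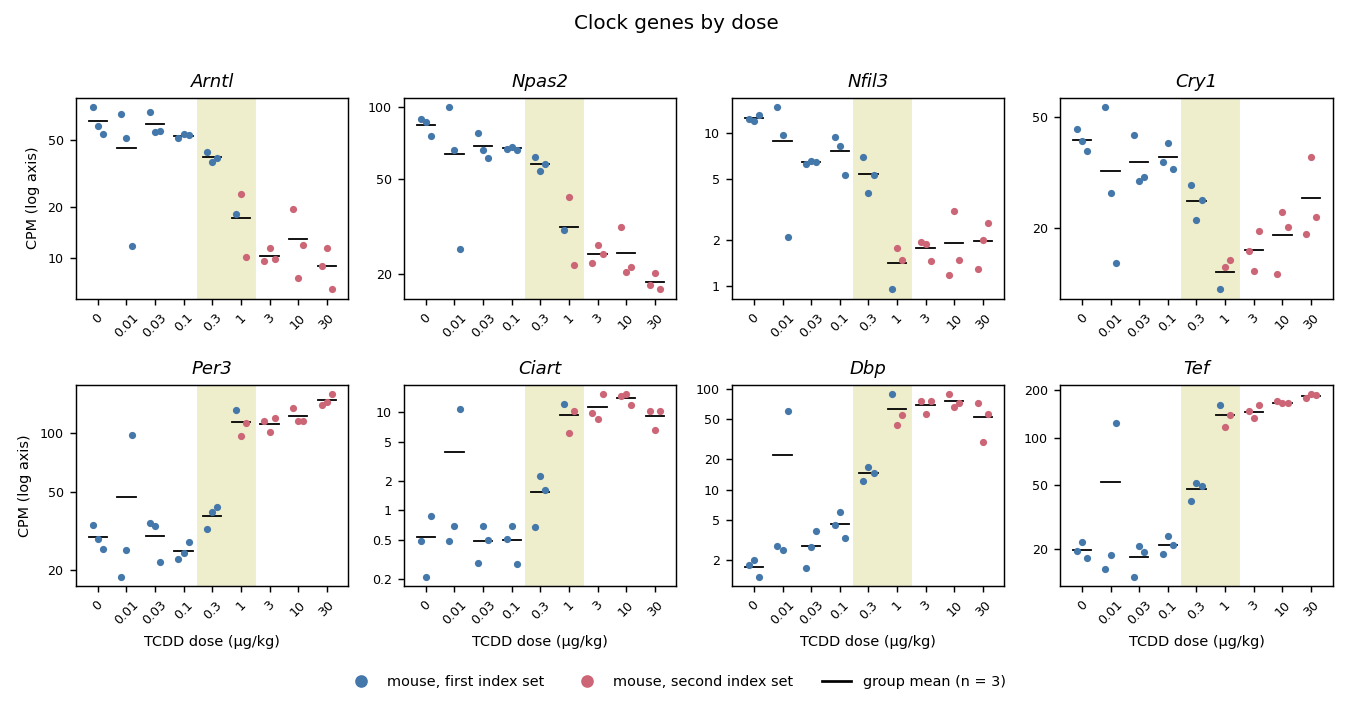
Levels of 8 clock genes in each mouse by TCDD dose (0 is sesame oil), in CPM on a log axis, with points for mice coloured by index set, lines for group means and the 0.3 and 1 μg/kg groups shaded. Mouse 14 at 0.01 μg/kg lay within the range of the mice at 1 μg/kg and above in all 8 genes, and the 3 mice at 0.3 μg/kg lay between the remaining lower doses and 1 μg/kg for Dbp.

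The kinases and ubiquitin ligases that set clock protein turnover showed no such shift. Of the 9 tested, Csnk1d, the casein kinase that marks PER for degradation, had a log2 fold change of 0.03 ± 0.08. Csnk1e was at -0.21 ± 0.14, Fbxl21 at 0.64 ± 0.45, Btrc at 0.11 ± 0.1, Fbxw11 at -0.01 ± 0.11, Timeless at -0.02 ± 0.28 and Nono at 0.03 ± 0.07, and all overlapped between the doses. Usp2, a deubiquitinase that is itself driven by the clock, was the exception, at 16.2, 24.9 and 26 CPM and then at 36.7, 26.4 and 42.1 CPM, with mouse 43 just above the highest mouse at 0.3 μg/kg.

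Of 8 tested genes often driven by the clock, 3 lay wholly higher at 1 μg/kg and none wholly lower, beside 5.87% and 4.66% of all genes. Klf10, a Krüppel-like repressor, was at 47.2, 48.3 and 56.8 CPM and then at 69.5, 77.7 and 83.4 CPM, although at 3 to 30 μg/kg it did not differ from vehicle to 0.1 μg/kg beyond the test (log2 fold change -0.05 ± 0.1). The separation was slight for Noct, or nocturnin (log2 fold change 0.16 ± 0.14), and for Rcan1 (0.21 ± 0.16). Nampt (0.13 ± 0.1), Wee1 (0.17 ± 0.15), Klf15 (-0.11 ± 0.35), Pck1 (0.03 ± 0.15) and Vip (-0.99 ± 0.84) overlapped. Cipc, a CLOCK-binding inhibitor that was on no list and was named after its values were seen, was at 183, 167 and 165 CPM and then at 299, 249 and 312 CPM, 1.67-fold higher without overlap.

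The clock genes could also be tested in 21 mice that take no part in this step. Their clock values still entered its choice, which compared all adjacent steps of the dose series, so they are not wholly separate from it. Between 3 to 30 μg/kg and vehicle to 0.1 μg/kg, 12 of the 20 core genes rose, when 2.72% of all genes rose, and 4 fell, when 3.09% of all genes fell. Dbp rose by 3.8 ± 0.39 on the log2 scale (edgeR adjusted p = 2.84e-07), Ciart by 3.71 ± 0.38 (edgeR adjusted p = 3.15e-07) and Per3 by 1.98 ± 0.18 (edgeR adjusted p = 9.26e-08), whereas Arntl fell by 2.39 on the log2 scale (SE 0.23, edgeR adjusted p = 1.34e-07) and Nfil3 fell by 2.2 (SE 0.25, edgeR adjusted p = 1.35e-06). All 16 called genes had the same sign between 0.3 and 1 μg/kg, a step that lies between the low and the high doses and was chosen on clock genes, so the shared sign is no separate evidence. In that wider comparison the high doses are all of the second index set and the low doses all of the first. Dose and index set therefore cannot be told apart there. With the index term 190 genes were called instead of 959. That term is set only by mouse 41 against mice 43 and 44, so the lower count does not show an effect of index set.

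The step could be read within the first index set through mouse 41 alone. With the index term, the log2 fold change was 2.97 ± 0.78 for Ciart, 2.6 ± 0.79 for Dbp, 1.79 ± 0.44 for Per3, 1.77 ± 0.56 for Tef, -1.13 ± 0.59 for Arntl and -2.5 ± 0.77 for Nfil3, each with the sign found with all 3 mice. For Bhlhe41 it was 2.16 ± 0.54 against 1.23 ± 0.53 with all 3 mice, and for Hlf 2.16 ± 0.54 against 1.31 ± 0.52. These estimates describe a single mouse at 1 μg/kg. Against the range of the mice at 0.3 μg/kg, mouse 41 lay outside for 19 of the 20 core genes, mouse 44 for 18 and mouse 43 for 14. Over all genes tested, the same mice lay outside for 51%, 54.2% and 52.7%.

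**Figure D3:**
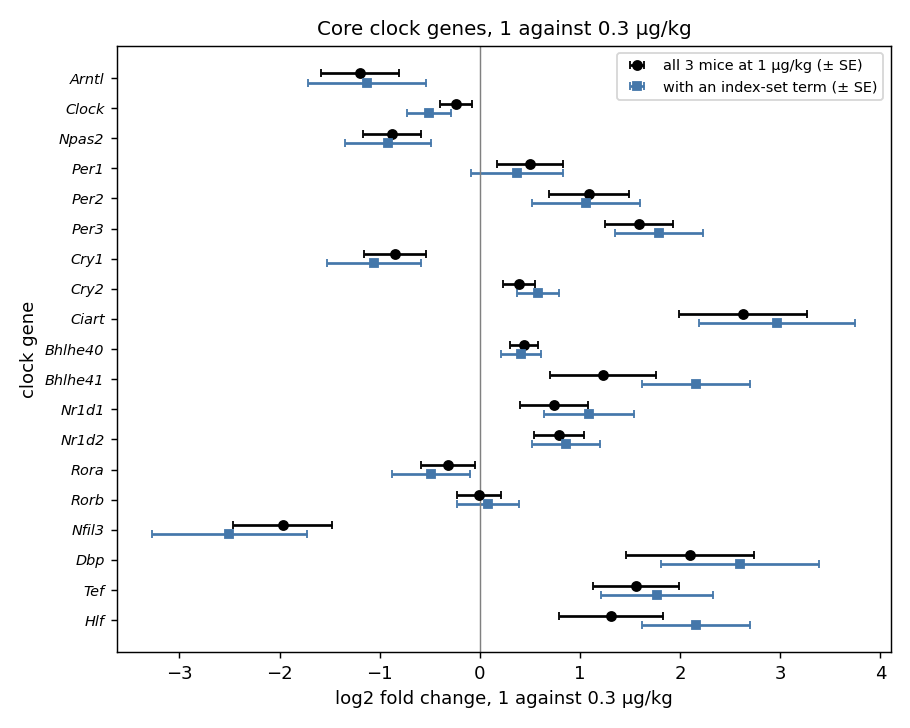
Log2 fold change between 1 and 0.3 μg/kg with its SE for 19 of the 20 core clock genes, from the fit of all mice (circles) and with a term for index set (squares), which in effect compares mouse 41 with the mice at 0.3 μg/kg. The 2 estimates had the same sign for all genes shown but Rorb, which was near 0 in both.

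Among the 8 adjacent steps of the dose series, this one held the largest fitted change for 10 of the 20 core genes. The median size of the log2 change over the core genes was 0.86 at this step and between 0.16 and 0.51 at the others, beside 0.11 to 0.14 over all genes at any step. These are the values for which the step was singled out. Fitted values of part of the loop also differed between 0.1 and 0.3 μg/kg. The log2 step from 0.1 to 0.3 μg/kg was 1.67 for Dbp, 1.61 for Ciart, 1.15 for Tef and 1.07 for Nr1d1, and for Nr1d1 this was more than the 0.74 between 0.3 and 1 μg/kg. Beyond 1 μg/kg, the step to 3 μg/kg was 0.14 for Dbp, 0.25 for Ciart, 0.07 for Tef and -0.03 for Per3, against -0.75 for Arntl.

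A mouse at 0.01 μg/kg, mouse 14, stood apart from its group and touched these results through the shared estimate of spread. Its Dbp level was 60 CPM, when the other mice at vehicle to 0.1 μg/kg lay between 1.37 and 5.94 CPM, and its Arntl level was 11.8 CPM. In 11 of the 13 core genes that separated 1 from 0.3 μg/kg, it lay outside all other mice at vehicle to 0.1 μg/kg in the direction of this step. Without mouse 14, in a fit added after the data were seen, 9 genes passed between 1 and 0.3 μg/kg instead of 1. These were Cyp1a1, Ciart, Dbp, Per3, Tef, Nr1d2, Cipc and Coq10b, which were higher, and Nfil3, which was lower. The clock genes among them are those on which the step was chosen, so that their passing is no independent test, and fold changes differed little from those with all mice, at 1.59 in both fits for Per3 and 2.1 and 2.11 for Dbp. In that fit the step held the largest change for 12 of the 20 core genes. With only the 6 mice in the fit, 5 genes passed, of which Cyp1a1 and the tight-junction claudin Cldn8, which was lower, lay outside the clock. The other 3 were Dbp, Per3 and Tef, again clock genes on whose values the step was chosen, so that their passing is a description.

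Cholesterol synthesis genes were higher at 1 μg/kg throughout the list, but none passed the test over all genes. All 17 genes tested had a log2 fold change above 0, with a median of 0.5 against 0 over all genes, and 13 lay wholly higher, beside 5.87% of all genes. At an unadjusted p under 0.05, 13 of the 17 were higher, beside 3.62% of all genes (6.01% in either direction). Hmgcs1, which makes the substrate of the rate-limiting step, was at 261, 241 and 297 CPM at 0.3 μg/kg and at 434, 356 and 416 CPM at 1 μg/kg (log2 fold change 0.59 ± 0.18, edgeR adjusted p = 0.541). Srebf2, the transcription factor of the pathway, was at 298, 291 and 313 CPM and then at 347, 318 and 315 CPM (0.12 ± 0.08). Insig1, the sterol sensor that holds the pathway in check, was picked out with its values known and was at 99.2, 84.1 and 97 CPM and then at 216, 145 and 165 CPM (0.91 ± 0.2, edgeR adjusted p = 0.258). Mouse 41 was the highest of the 6 mice in all 3 of these genes. DESeq2 called Insig1 between the doses.

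The sterol genes were also set against the lower and the higher doses. At 0.3 μg/kg 15 of the 17 were below the mean of vehicle to 0.1 μg/kg, with a median of -0.12, and at 1 μg/kg all 17 were above it, with a median of 0.33. At 3 to 30 μg/kg 15 of the 17 were below their level at 1 μg/kg. These comparisons share the mice at 0.3 or 1 μg/kg, so they are not independent. In the wider comparison of high with low doses the median of the list was 0.19.

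**Figure D4:**
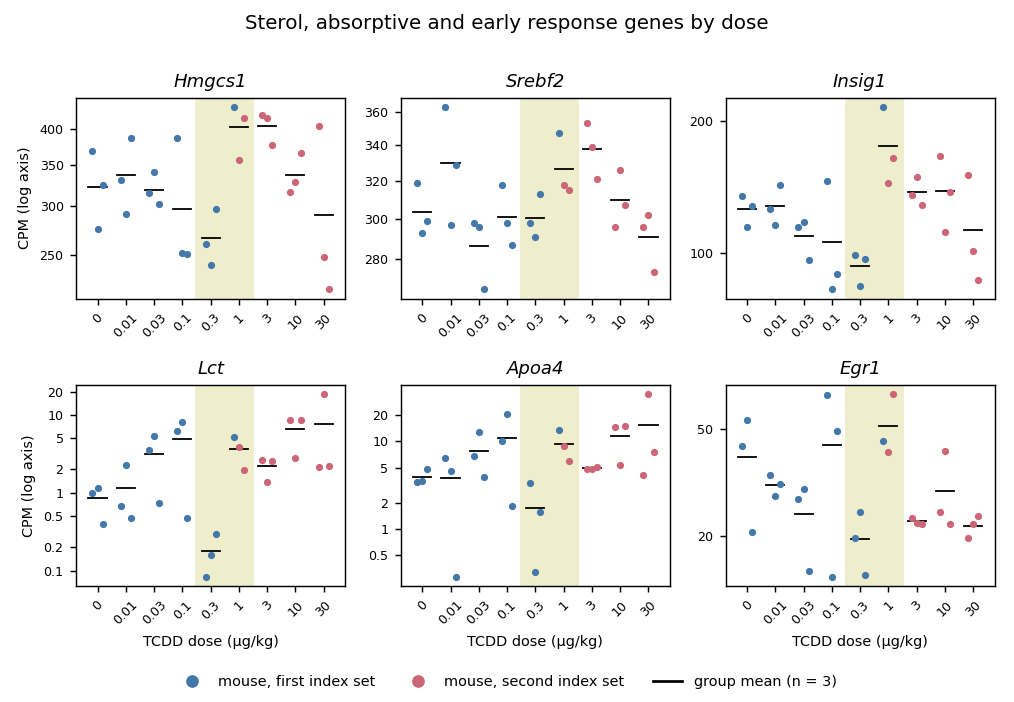
Levels of 3 sterol genes, 2 genes of the absorptive small intestine and Egr1 in each mouse by TCDD dose (0 is sesame oil), in CPM on a log axis, with points for mice coloured by index set, lines for group means and the 0.3 and 1 μg/kg groups shaded. The mice at 1 μg/kg lay above those at 0.3 μg/kg in all 6 genes, while mice at other doses reached the level of at least 1 of the mice at 1 μg/kg.

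Genes of the absorptive small intestine were compared next. All 6 tested markers of that tissue were above 0 in log2 fold change between 1 and 0.3 μg/kg, with a median of 1.45, 2 lay wholly higher (5.87% of all genes), and 3 were higher at an unadjusted p under 0.05 (3.62% of all genes). Of these markers edgeR called none and DESeq2 called Lct (log2 fold change 4.34, DESeq2 adjusted p = 0.0496). Lct and Apoa4 were picked out with their values known. Lct, the brush-border lactase, was at 0.0838, 0.161 and 0.296 CPM and then at 5.23, 3.89 and 1.99 CPM, and Apoa4, an apolipoprotein of chylomicrons, was at 3.35, 0.323 and 1.55 CPM and then at 13.4, 8.88 and 5.96 CPM. Fabp1, a fatty acid binding protein named after its values were seen, was at 0.0838 to 0.161 CPM and then at 1.09 to 1.9 CPM. All 6 markers had a fitted level at 0.3 μg/kg below the mean of vehicle to 0.1 μg/kg, a difference that was not tested. Group means of Lct at vehicle to 0.1 μg/kg ran from 0.845 to 4.91 CPM, with the lowest mouse at 0.393 CPM, close to the highest at 0.3 μg/kg. Reg1 at 1 μg/kg was decided by mouse 44, at 61.6 CPM beside 0.0792 and 0.333 CPM in mice 41 and 43. The more abundant markers Alpi (0.45 ± 0.31) and Sis (0.34 ± 0.56) overlapped. The summed level of the small intestine markers was 42.7 to 74.2 CPM at 0.3 μg/kg and 63 to 173 CPM at 1 μg/kg, and the part that the sampled stretch of gut had in these values was not tested.

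Among 11 nutrient transporters, 8 were above 0, and 4 were higher at an unadjusted p under 0.05 (3.62% of all genes) while edgeR called none. Slc2a5, the fructose transporter, was at 4.11, 3.79 and 2 CPM and then at 8.4, 5.44 and 10.8 CPM (log2 fold change 1.33 ± 0.33, edgeR adjusted p = 0.415). In the 21 other mice Slc2a5 rose by 1.19 ± 0.18 between low and high doses (edgeR adjusted p = 5.66e-05), which also differ in index set. Slc6a19, a neutral amino acid transporter, was at 2.35 to 2.91 CPM and then at 4.57 to 8.55 CPM. Both were picked out with their values known. The transporters with the highest levels, the efflux pump Abcb1a (0.1 ± 0.14) and the monocarboxylate carrier Slc5a8 (-0.08 ± 0.22), overlapped. Of 24 ion and water transport genes, 13 were above 0 with a median of 0.04.

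Immediate early and interferon-stimulated genes were also mostly above 0, and edgeR called none of them, with 3 genes of each list higher at an unadjusted p under 0.05, beside 3.62% of all genes. Of 8 immediate early genes 7 were above 0, with a median of 0.34. Egr1, a zinc finger factor induced within minutes by growth signals, was at 19.7, 24.5 and 14.3 CPM and then at 45.1, 40.9 and 67.5 CPM (log2 fold change 1.39 ± 0.39, edgeR adjusted p = 0.494), and Junb was at 88.9, 85.4 and 103 CPM and then at 156, 108 and 157 CPM. Both separated the doses, but Egr1 was at 39.2 CPM on average in vehicle mice and at 22.6 CPM at 3 μg/kg. All 17 interferon-stimulated genes were above 0, with a median of 0.48, and 5 lay wholly higher, beside 5.87% of all genes. Isg15, a ubiquitin-like modifier, was at 5.11, 3.87 and 4.07 CPM and then at 8.79, 9.22 and 7.85 CPM (0.99 ± 0.27, edgeR adjusted p = 0.494), and Oasl2 was at 39.7 to 64.4 CPM and then at 65.2 to 93.3 CPM, so that its groups were separated by less than 1 CPM. Irf7, the most abundant of the list, had a log2 fold change of 0.08 ± 0.23.

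**Figure D5:**
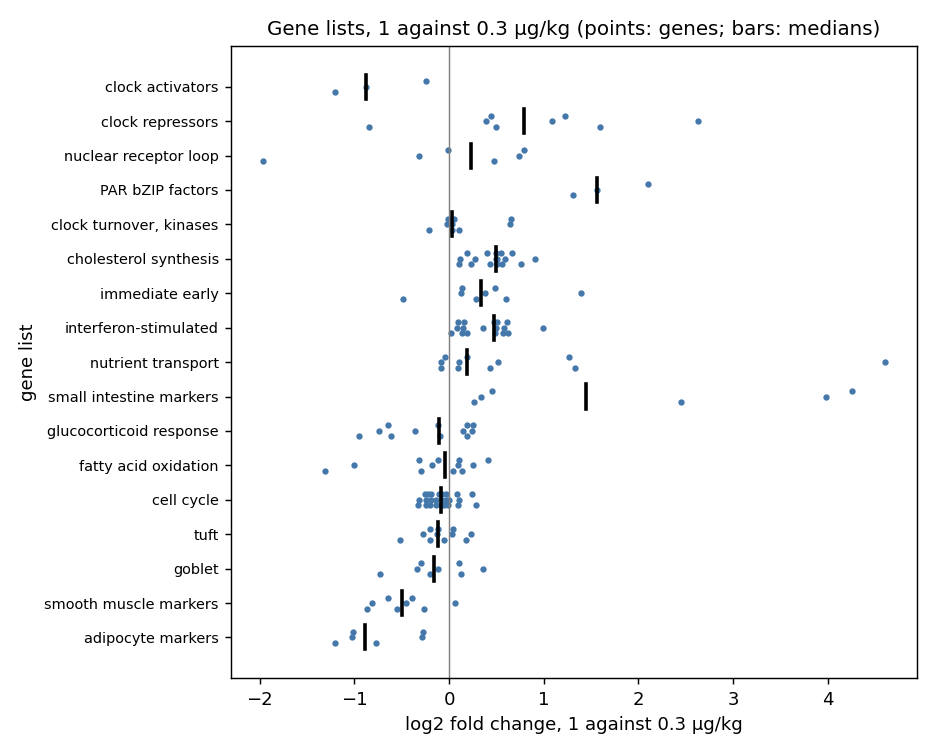
Log2 fold change between 1 and 0.3 μg/kg for each tested gene (points) of 17 gene lists, with the list median as a bar. The sterol and interferon-stimulated genes all lay above 0, the PAR bZIP factors and small intestine markers had the highest medians (1.56 and 1.45), and the adipocyte markers the lowest (-0.89). Points beyond 3 are Lct, Slc2a2 and Reg1, of which the first 2 had few counts at 0.3 μg/kg and Reg1 rests on mouse 44.

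The remaining lists of epithelial function and signalling had medians between -0.23 and 0.01 on the log2 scale. Of 25 cell cycle genes 19 were below 0, with a median of -0.09, Mki67 being at -0.33 ± 0.23. Of 11 tuft cell genes 7 were below 0 (median -0.12), of 8 goblet cell genes 5 (median -0.16, with the mucin Muc2 at 0.13 ± 0.18), of 13 enteroendocrine genes 12 (median -0.14, with Chga at -0.14 ± 0.25) and of 11 antimicrobial genes 7 (median -0.23, with Lypd8 at 0.11 ± 0.14). At an unadjusted p under 0.05, 1 cell cycle gene was higher and 1 enteroendocrine and 1 antimicrobial gene were lower, beside 3.62% of all genes higher and 2.39% lower, and edgeR called none. In the 21 other mice 9 of the 11 tuft cell genes fell between low and high doses, beside 3.09% of all genes. Dose and index set cannot be told apart there, and the difference from this step was not tested over the list. Of 10 crypt and Wnt genes 8 were below 0 (median -0.13, with Sox9 at 0 ± 0.15 and Ephb2 at -0.05 ± 0.08), and at an unadjusted p under 0.05, 2 were lower and 1 was higher, beside the same shares of all genes. Among 12 glucocorticoid-responsive genes the median was -0.11, and 3 were lower at an unadjusted p under 0.05, beside 2.39% of all genes. Sgk1, a kinase that drives sodium uptake, was at 242, 278 and 304 CPM and then at 98, 126 and 272 CPM, with mouse 44 inside the range of 0.3 μg/kg, and Hsd11b2 was at 0.19 ± 0.15. Fatty acid oxidation (median -0.04), lipogenesis (median -0.03, Fasn at 0.15 ± 0.13), heat shock (median 0.01, Hspa8 at 0.01 ± 0.1) and MHC class II genes (median -0.13, Cd74 at 0 ± 0.32) had no member called by edgeR, and 1 fatty acid oxidation gene was lower at an unadjusted p under 0.05.

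Epithelial markers dominated all 6 samples, and tissue from beneath the epithelium varied between them. The 9 epithelial markers summed to 8570 to 9840 CPM at 0.3 μg/kg and 9730 to 10700 CPM at 1 μg/kg, with Krt8 at 0.18 ± 0.12. The 8 smooth muscle markers summed to 511, 265 and 182 CPM in mice 33, 34 and 35 and to 455, 142 and 151 CPM in mice 41, 43 and 44, so the groups overlapped, and 7 of the 8 were below 0 in log2 fold change. Fibroblast markers summed to 138, 153 and 107 CPM and then to 152, 59 and 69.3 CPM, with all 6 below 0. Adipocyte markers summed to 27.7 to 43.1 CPM at 0.3 μg/kg and 17.2 to 25.9 CPM at 1 μg/kg, without overlap and with all 6 below 0, and the 6 markers of enteric neurons and glia to 4.22 to 4.86 CPM and 2.09 to 3.33 CPM, also without overlap. B and plasma cell, T cell, macrophage, endothelial and erythrocyte marker sums overlapped, and of the erythrocyte markers Hba-a1 was at 0 in all 6 mice. Among 25 tested Hox genes, which mark position along the gut, the median log2 fold change was 0.07, and Hoxb13, a gene of the distal colon, was at 26.9, 46 and 133 CPM and then at 103, 45.9 and 29.8 CPM. The part of these differences in the gene results was not tested.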

How the data were processed

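RNA from colonic epithelium of 27 mice, 3 at each of 9 doses, was sequenced from NuGen Ovation libraries. The authors deposited gene counts per mouse; the submitters' processing notes name FastQC 0.11.3, Trimmomatic 0.33, TopHat2 2.1.0, SAMtools 1.2.0, HTSeq 0.6.1, DESeq and build GRCm38, and strand use in counting is not given in the sources used here. Summary rows without a gene were dropped, of which reads in no feature were 29.1 to 33.3% and reads aligned to several places 30.7 to 37.1%.

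Of 46078 gene rows, 45143 had a symbol, and 16496 passed filterByExpr (minimum count 10). TMM-scaled counts of all 9 groups were fitted together with the quasi-likelihood test of edgeR 4.0.16 (R 4.3.3), and a call needed a Benjamini-Hochberg adjusted p under 0.05 and a change of at least 1.5-fold. DESeq2 1.42.0, limma 3.58.1 and the settings in the closing section were alternatives. No 2 mice of a group had counts alike within sampling noise. Each label names 1 mouse, and p-values measure the spread between mice.

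Named genes were those called with at least 1 CPM and no overlap, all tested clock genes, and of other lists the called members or else the 2 with the highest mean, and genes called in the difference between steps with at least 1 CPM (Ahrr and Pcdh17). Some genes under this rule are not reported here. Genes outside this rule were chosen after their values were seen, namely Cyp1b1, Cyp1a2, Tiparp, Nqo1, Ahr, Arnt, Cipc, Coq10b, Cldn8, Insig1, Lct, Apoa4, Fabp1, Reg1, Slc2a2, Slc2a5, Slc6a19, Egr1, Isg15, Hoxb13, Hba-a1 and Mfsd1. The comparison and the lists were chosen with earlier results of these data known. Positions are from GENCODE M21, and promoters from RefSeq.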

Additional observations from a re-analysis of the deposited data

Results flagged for a closer look

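For 3 genes the step from 0.3 to 1 μg/kg differed from the step from 3 to 10 μg/kg by a test of the difference itself (edgeR, all genes). The difference in log2 fold change, the lower step minus the higher, was -5.11 for Cyp1b1, -3.14 for Ahrr and 2.87 for Pcdh17. The higher step lies within the second index set, and the lower one spans both sets. With the index term the difference was called for Ahrr and Pcdh17 and not for Cyp1b1, whose call was also lost without mouse 34. The limma voom fit called none of the 3.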

How the results depend on the processing

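Between 1 and 0.3 μg/kg 1 gene was called, and 7 were called by DESeq2, 4 by limma voom at a posterior of at least 0.8, 7 without a filter, 5 with only the groups compared and 9 without mouse 14, a setting added after the data were seen. With the index term 0 genes were called by edgeR (873 at an unadjusted p under 0.05), and in the first index set alone 0 (896). Leaving out 1 mouse gave 0 to 1 calls, with 1 only without mouse 44. Between 3 to 30 μg/kg and vehicle to 0.1 μg/kg 959 genes were called, against 329 by limma voom, 190 with the index term, of which 91 were shared with the 959, and 3862 by adjusted p alone, and leaving out 1 mouse gave 872 to 1040. The difference between steps had 3 calls, against 6 by DESeq2, 1 by limma voom (Mfsd1, not among the 3), 5 with only the groups compared and 6 without mouse 14, and leaving out 1 mouse gave 2 to 4. Of 1209 values of 81 named genes, 1111 stayed the same, 62 shifted by more than the SE, 28 gained a call and 8 lost it. None reversed a call, but only Cyp1a1 had a call to reverse. The cause of these changes was not tested, and the index term rests on mouse 41 against mice 43 and 44 alone. No paired analysis was possible because no replicate number is shared between doses. With 3 mice per group an exact permutation test of 1 gene cannot go below 0.1, and genes under about 1 CPM rest on few counts.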
